A study of Homo sapiens with 20 samples.

Results

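The 32 genes described here encode integrins, laminins and other parts of the basement membrane. They were chosen by symbol from a given list, mapped to Ensembl identifiers, and make up 32 of 31155 identifiers in any of the 5 tables of the study. The list holds 12 integrin alpha subunits, 6 integrin beta subunits, 5 laminin alpha, 3 laminin beta and 2 laminin gamma chains, 2 nidogens, and the heparan sulfate proteoglycans AGRN (agrin) and HSPG2 (perlecan). All but 1 were listed in all 5 tables. ITGB3 was not listed in the shFOXO4 day 3 table.

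The 20 RNA-seq libraries form 10 groups of 2 replicates, all made from the human embryonic stem cell (hESC) line H1. Untreated wild-type hESC were set against wild-type cells after 3 days on the way to surface epithelium (SE), the initiating stage in the labels. Elsewhere, differentiating cells with a short hairpin RNA against FOXO4 (a forkhead transcription factor) or against SP6 (a zinc finger transcription factor of the SP family) were set against differentiating cells with a scramble hairpin, at day 3 or at day 7, the later stage that the labels link to maturation. Each of these 4 comparisons had its own scramble libraries, so none of them share controls. The labels give neither the hairpin's sequence nor a clone, and do not say that replicates were separate cultures, so p-values reflect only how far these libraries spread, which may be technical.

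Basement membranes are thin sheets of extracellular matrix on which epithelia rest. Laminins are secreted as trimers of 1 alpha, 1 beta and 1 gamma chain, and the numbers in a trimer's name give its chains, so that laminin-511 holds LAMA5, LAMB1 and LAMC1. Nidogens and perlecan link the laminin network to collagen IV, and integrins, which are dimers of an alpha and a beta subunit in the plasma membrane, bind the matrix from the cell side. Laminin-521 and laminin-511 are in wide use as culture substrates of pluripotent stem cells, and laminin-332 and the integrin of ITGA6 and ITGB4 anchor the basal cells of stratified epithelia.

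In the knockdowns, laminin-111 and laminin-511 were the only 2 of 23 known heteromers looked at whose chains were all lower in all 4 comparisons, while the alpha chain LAMA2 and the gamma chain LAMC3 were higher in all 4. For laminin-511 this rests on LAMA5 in shSP6 cells at day 3, a call lost without shSP6 replicate 1 (adjusted p = 0.139 by limma). The promoters of the 3 chains of laminin-511 are shown beside that of LAMA2, since these genes moved together or against each other. They run from 250 bases before to 50 bases after the annotated start, on the strand of the gene, and come from RefSeq on GRCh38.p14. The deposited values were made on hg19 and carry no positions. Capitals mark matches to GGGCGG on either strand (the GC box that SP factors bind) or to GCCNNNGGC (a motif of AP-2 factors), and overlapping matches run together.
LAMB1, chr7:108003112-108003411, minus strand: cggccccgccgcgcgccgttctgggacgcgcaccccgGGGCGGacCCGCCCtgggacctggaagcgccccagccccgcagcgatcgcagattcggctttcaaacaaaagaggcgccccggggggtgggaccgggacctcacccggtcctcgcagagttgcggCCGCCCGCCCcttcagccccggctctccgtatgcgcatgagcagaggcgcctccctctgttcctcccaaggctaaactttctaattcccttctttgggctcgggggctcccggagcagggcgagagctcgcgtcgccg
LAMC1, chr1:183023170-183023469, plus strand: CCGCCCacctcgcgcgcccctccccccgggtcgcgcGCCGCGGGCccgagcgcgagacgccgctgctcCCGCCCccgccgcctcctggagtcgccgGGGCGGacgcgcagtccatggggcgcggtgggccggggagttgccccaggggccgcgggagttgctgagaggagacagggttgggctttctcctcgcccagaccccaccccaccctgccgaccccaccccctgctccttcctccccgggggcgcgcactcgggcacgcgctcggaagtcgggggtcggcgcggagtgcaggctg
LAMA5, chr20:62367263-62367562, minus strand: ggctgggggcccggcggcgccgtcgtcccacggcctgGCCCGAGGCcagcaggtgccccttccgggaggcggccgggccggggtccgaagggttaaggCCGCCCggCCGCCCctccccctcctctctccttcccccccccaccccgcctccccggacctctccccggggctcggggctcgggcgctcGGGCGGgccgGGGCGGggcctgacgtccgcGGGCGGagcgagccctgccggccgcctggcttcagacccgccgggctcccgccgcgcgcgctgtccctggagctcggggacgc
LAMA2, chr6:128882888-128883187, plus strand: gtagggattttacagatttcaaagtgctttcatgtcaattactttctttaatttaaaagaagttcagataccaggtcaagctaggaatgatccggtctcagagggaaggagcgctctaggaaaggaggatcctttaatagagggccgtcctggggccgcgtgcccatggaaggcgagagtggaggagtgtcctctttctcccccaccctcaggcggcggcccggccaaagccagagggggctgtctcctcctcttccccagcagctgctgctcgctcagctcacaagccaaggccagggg
LAMB1 held 4 GC boxes, LAMC1 held 3 and LAMA5 held 5, LAMC1 and LAMA5 each held 1 AP-2 motif, and LAMA2 held none of either in this window. The bases G and C made up 71%, 79% and 82.7% of the LAMB1, LAMC1 and LAMA5 windows and 55.3% of that of LAMA2. LAMA2 does not stand for all laminin and nidogen genes called higher in some knockdowns. NID1 held 1 GC box and 2 AP-2 motifs, LAMA3 held 1 GC box, and LAMA4 held neither motif. The first bases after the start occurred in a GENCODE transcript of LAMB1 and of LAMA5. For LAMC1 and LAMA2 they did not, so the start of these 2 windows is less sure. The table gave 31 promoters for 24 of the 32 genes, and LAMA1 and LAMC3 were among those without an entry. A GC box was in 21 of these 31, in 16 of the 24 genes, and in 45% of all 35116 promoters of the same length. The AP-2 motif was in 12 of the 31, in 11 genes, and in 23.2% of all. The forkhead motif GTAAACA, searched on both strands, was in 0 of the 31 and in 3.42% of all. A match of letters is a description and shows neither binding nor its absence.

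Values are normalized read counts, which the authors scaled within each table of 4 libraries. A gene was called when its adjusted p in limma, fitted to log2(value + 1) of all genes whose table mean reached 10, was under 0.05. Changes are log2 differences with their standard error. In limma the spread of a gene is pooled with that of all genes tested in its table. The sizes of p-values from different tables therefore cannot be set against each other. Recovered reads ran from 14937104 to 30328846 per library, and the 4 libraries of the shFOXO4 day 7 table had 8.42 to 9.05% of their counts on mitochondrially encoded genes, against 1.45 to 3.85% in the other 16. The hairpins lowered their targets. FOXO4 measured 1875 and 2026 in scramble and 322 and 319 in shFOXO4 cells at day 3 and 1206 and 1009 in scramble and 35.5 and 35.5 in shFOXO4 cells at day 7. SP6 measured 1790.3 and 1939 in scramble and 203 and 322 in shSP6 cells at day 3 and 4077 and 3040.1 in scramble and 85.7 and 93.1 in shSP6 cells at day 7. SP6 was also lower in shFOXO4 cells on both days (log2 change -1.55 ± 0.07, adjusted p = 6.69e-23 and -3.37 ± 0.08, adjusted p = 3.08e-09), and FOXO4 was lower in shSP6 cells at day 7 (-2.49 ± 0.13, adjusted p = 2.46e-07) and not called at day 3 (-0.061 ± 0.085, adjusted p = 0.571).

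Markers of cell state moved in the same comparisons. All 7 surface ectoderm markers (TFAP2A, TFAP2C, GATA3, GRHL2, KRT8, KRT18 and KRT7) rose toward SE day 3 and were lower in all 4 knockdown comparisons. Their summed level was 10624 and 10689.5 in hESC and 94654 and 88056 in SE day 3 cells. It was 133695 and 139029 in scramble and 39076 and 37897 in shFOXO4 cells in the shFOXO4 comparison at day 7. In the shSP6 comparison at day 7 it was 146782 and 126498 in scramble and 28345 and 27835 in shSP6 cells. Of 5 pluripotent markers, 4 fell and 1 rose toward SE day 3, and 5, 5, 4 and 4 were higher in the shFOXO4 comparisons at days 3 and 7 and the shSP6 comparisons at days 3 and 7, with 1 lower in the last. Their sum was 105567 and 104630.0 in hESC and 66602 and 69937 in SE day 3 cells. It was 39094 and 33278 in scramble and 119559 and 109527 in shFOXO4 cells in the shFOXO4 comparison at day 7. The part of these shifts in the changes described next was not tested, and in bulk RNA fewer cells of a type and less RNA per cell cannot be told apart.

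On the way from hESC to SE day 3, the receptor subunit ITGAV and the laminin chain LAMB1 rose most among these genes, while NID1, LAMC3 and ITGB4 fell most among members whose mean reached 100 normalized counts. Of the 32 genes, 27 passed the filter, 7 rose and 12 fell, and 8 were not called. That is 70.4% of those tested, against 72.2% of all genes tested in this comparison (35.2% higher, 37.0% lower), so the members were called about as often as any gene. The other 5 (ITGA8, ITGA10, ITGA11, ITGB3 and ITGB6) lay under the filter. The median change of the tested members was -0.13, and that of all genes -0.020.

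LAMB1 (ENSG00000091136), the beta chain of laminin-111, laminin-211, laminin-411 and laminin-511, measured 1557 and 1601 in hESC and 5179 and 5196 in SE day 3 cells (change 1.72 ± 0.043, adjusted p = 1.72e-12). ITGAV (ENSG00000138448), the alpha subunit of receptors for fibronectin, vitronectin and latent TGF-beta, measured 1129.8 and 1143 in hESC and 3595 and 3070.0 in SE day 3 cells (change 1.55 ± 0.065, adjusted p = 2.51e-10). In both genes each SE day 3 library lay above each hESC library. NID1, the nidogen that links laminin gamma chains to collagen IV, measured 2076 and 2150.5 in hESC and 335 and 434 in SE day 3 cells (change -2.47 ± 0.096, adjusted p = 1.10e-10). LAMC3, a gamma chain of less common laminins, measured 485 and 521 in hESC and 95.8 and 90.7 in SE day 3 cells (change -2.42 ± 0.11, adjusted p = 6.50e-10). ITGB4, the partner of ITGA6 in hemidesmosomes, measured 251 and 237 in hESC and 57.9 and 64.2 in SE day 3 cells (change -1.98 ± 0.15, adjusted p = 6.58e-08). For these 3 genes the SE day 3 libraries were low and the groups did not overlap.

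Other laminin and receptor subunits moved apart. The laminin chains LAMA5 (0.66 ± 0.046), LAMB2 (0.28 ± 0.048) and LAMC1 (0.27 ± 0.04) rose, so that every chain of laminin-511 and of laminin-521 rose. LAMA1, the alpha chain of the early embryo's laminin-111, was not called (-0.027 ± 0.054, adjusted p = 0.674). The laminin receptor subunits ITGA6 (-0.92 ± 0.046), ITGA3 (-0.97 ± 0.069) and ITGA7 (-0.36 ± 0.062) fell. Their common partner ITGB1 was higher by 0.096 ± 0.033, a call that was lost without hESC replicate 2 (adjusted p = 0.119) or without either SE day 3 library (0.0725 and 0.0687). ITGA1, a collagen receptor subunit, was higher by 0.38 ± 0.12, and this call too was lost without hESC replicate 2 (0.0823) or SE day 3 replicate 1 (0.139). LAMA2 (-0.97 ± 0.14), LAMA4 (-3.00 ± 0.50), ITGA4 (-1.68 ± 0.20), ITGB8 (-2.12 ± 0.21), NID2 (-0.40 ± 0.13) and ITGB5 (-0.25 ± 0.038) also fell. NID2 lost its call without hESC replicate 2 (0.189) or SE day 3 replicate 1 (0.174), or with DESeq2 (0.0508). LAMA4, ITGA4 and ITGB8 had means under 100 and were picked for mention after their values were seen. Not called were ITGA2, ITGA5, ITGA9, LAMA1, LAMA3, LAMB3, AGRN and HSPG2, with changes between -0.48 and 0.084, though LAMA3 was called lower without SE day 3 replicate 1 (0.0317) and HSPG2 without SE day 3 replicate 2 (0.0252), and quantile normalization called LAMA1 (0.0319), AGRN (0.00635) and HSPG2 (0.0165) lower.

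**Figure D1:**
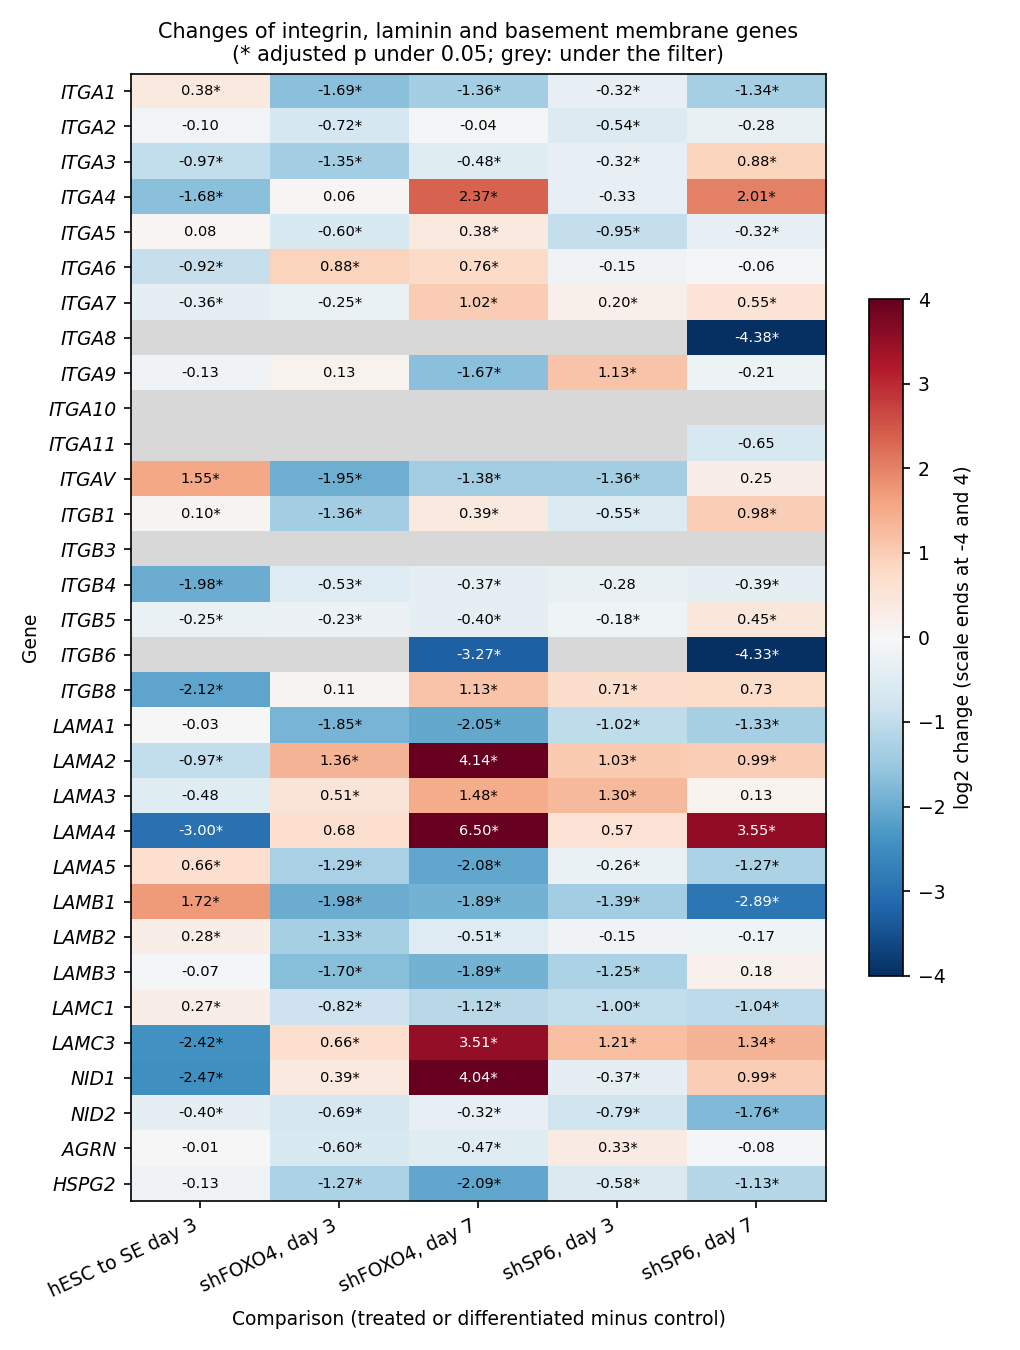
Heat map of the log2 change of each of the 32 genes (rows) in the 5 comparisons (columns), with the value in each cell, an asterisk where the adjusted p was under 0.05 and grey where the gene was under the filter. LAMB1 reads 1.72 from hESC to SE day 3 and between -2.89 and -1.39 in the 4 knockdown columns, while LAMC3 reads -2.42 in the first column and is above 0 in the other 4.

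In the knockdowns a core of laminin chains was lower than in scramble cells on both days and with both hairpins. Of 27 members tested in all 4 knockdown comparisons, 7 were lower in all 4 (LAMA1, LAMA5, LAMB1, LAMC1, NID2, HSPG2 and ITGA1) and 2 were higher in all 4 (LAMA2 and LAMC3). Over all genes, 12.3% of 14801 tested in all 4 were lower in all 4, and 10.4% were higher in all 4. For LAMA1, LAMB1, LAMC1, HSPG2, LAMA2 and LAMC3 every one of these calls held in every alternative that was run. A call was lost for LAMA5 in shSP6 cells at day 3 without shSP6 replicate 1 (adjusted p = 0.139), for ITGA1 in the same comparison without shSP6 replicate 1 (0.0762) or replicate 2 (0.132) or with DESeq2 (0.0844). For NID2 in shFOXO4 cells at day 7 it was lost without scramble replicate 1 (0.104) or shFOXO4 replicate 2 (0.172), without the filter (0.0601), with quantile normalization (0.0982) and with DESeq2 (0.0611).

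LAMB1 had a lower change than LAMA1, LAMA5 and LAMC1 in all but the shFOXO4 comparison at day 7, where LAMA1 and LAMA5 were lower. In the shFOXO4 comparison it measured 5602 and 5282 in scramble and 1361 and 1405 in shFOXO4 cells at day 3 (change -1.98 ± 0.046, adjusted p = 1.76e-33). At day 7 its values were 8777 and 9319 in scramble and 2532 and 2338 in shFOXO4 cells (change -1.89 ± 0.062, adjusted p = 1.67e-08). The shFOXO4 libraries were low on both days, and the groups stood well apart. In the shSP6 comparison LAMB1 measured 6699 and 5753 in scramble and 2329 and 2402 in shSP6 cells at day 3 (change -1.39 ± 0.073, adjusted p = 1.49e-07). By day 7 the values were 11194 and 10583 in scramble and 1482 and 1444 in shSP6 cells (change -2.89 ± 0.072, adjusted p = 3.34e-09), which is a 7.44-fold difference. With the SP6 hairpin the fall was larger at day 7 than at day 3 (difference -1.50 ± 0.11, adjusted p = 1.63e-06) and, at day 7, larger than with the FOXO4 hairpin (difference -1.0 ± 0.093, adjusted p = 5.41e-06).

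LAMC1 (ENSG00000135862), the gamma chain shared by most laminins, moved in the same direction and less far. At day 7 it measured 9223 and 9768 in scramble and 4396 and 4311 in shFOXO4 cells (change -1.12 ± 0.054, adjusted p = 1.67e-07). With the SP6 hairpin its day 7 values were 8275 and 7009 in scramble and 3587 and 3814 in shSP6 cells (change -1.04 ± 0.089, adjusted p = 6.58e-06). Knockdown libraries were low in both, with no overlap. At day 3 the change was -0.82 ± 0.04 in shFOXO4 cells and -1.0 ± 0.073 in shSP6 cells, and the difference between the effects of the hairpins was not called on either day (-0.18 ± 0.085, adjusted p = 0.104 at day 3, 0.083 ± 0.11, adjusted p = 0.557 at day 7), though at day 3 it was called without scramble replicate 2 of the shSP6 comparison (adjusted p = 0.000366).

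Both alpha chains of the core were lower. LAMA1 (ENSG00000101680) measured 2666 and 2491 in scramble and 706 and 724 in shFOXO4 cells at day 3 (change -1.85 ± 0.055, adjusted p = 9.50e-30). By day 7 it stood at 4627 and 5219.8 in scramble and 1164 and 1215 in shFOXO4 cells (change -2.05 ± 0.071, adjusted p = 2.49e-08). In both of these comparisons the shFOXO4 libraries lay far under the scramble pair. With the SP6 hairpin LAMA1 measured 3414 and 2925 in scramble and 1484 and 1631 in shSP6 cells at day 3 (change -1.02 ± 0.081, adjusted p = 2.00e-06). Its day 7 values were 3773 and 3517 in scramble and 1471 and 1429 in shSP6 cells (change -1.33 ± 0.077, adjusted p = 5.19e-07). The 4 knockdown pairs all lay under their scramble pairs.

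LAMA5 (ENSG00000130702) is the alpha chain of laminin-511 and laminin-521. It measured 4836 and 4570.0 in scramble and 1908 and 1946 in shFOXO4 cells at day 3 (change -1.29 ± 0.045, adjusted p = 6.13e-27). At day 7 the counts were 16246 and 16743 in scramble and 3577 and 4240.0 in shFOXO4 cells (change -2.08 ± 0.077, adjusted p = 3.48e-08), so that the shFOXO4 libraries lay far under the scramble pair. In shSP6 cells the change was -0.26 ± 0.062 at day 3, with groups that did not overlap. At day 7 LAMA5 measured 8697 and 8005 in scramble and 3423 and 3497 in shSP6 cells (change -1.27 ± 0.073, adjusted p = 5.14e-07). The fall was larger at day 7 than at day 3 with both hairpins (difference -0.80 ± 0.093, adjusted p = 4.23e-06 for FOXO4 and -1.01 ± 0.098, adjusted p = 1.54e-05 for SP6).

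HSPG2 (ENSG00000142798), which encodes perlecan, moved with these chains. It measured 2740.1 and 2571 in scramble and 1144 and 1061 in shFOXO4 cells at day 3 (change -1.27 ± 0.053, adjusted p = 2.57e-24). By day 7 the values were 19179 and 21184 in scramble and 4423 and 5050.0 in shFOXO4 cells (change -2.09 ± 0.075, adjusted p = 2.92e-08). On both days the shFOXO4 pair lay far under the scramble pair. In shSP6 cells HSPG2 changed by -0.58 ± 0.08 at day 3. Its day 7 counts were 8674 and 7903 in scramble and 3719 and 3842 in shSP6 cells (change -1.13 ± 0.075, adjusted p = 1.23e-06), again with no overlap. AGRN, the other proteoglycan, was lower in shFOXO4 cells on both days (-0.60 ± 0.045 and -0.47 ± 0.051), higher in shSP6 cells at day 3 (0.33 ± 0.053) and not called at day 7 (-0.083 ± 0.073).

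**Figure D2:**
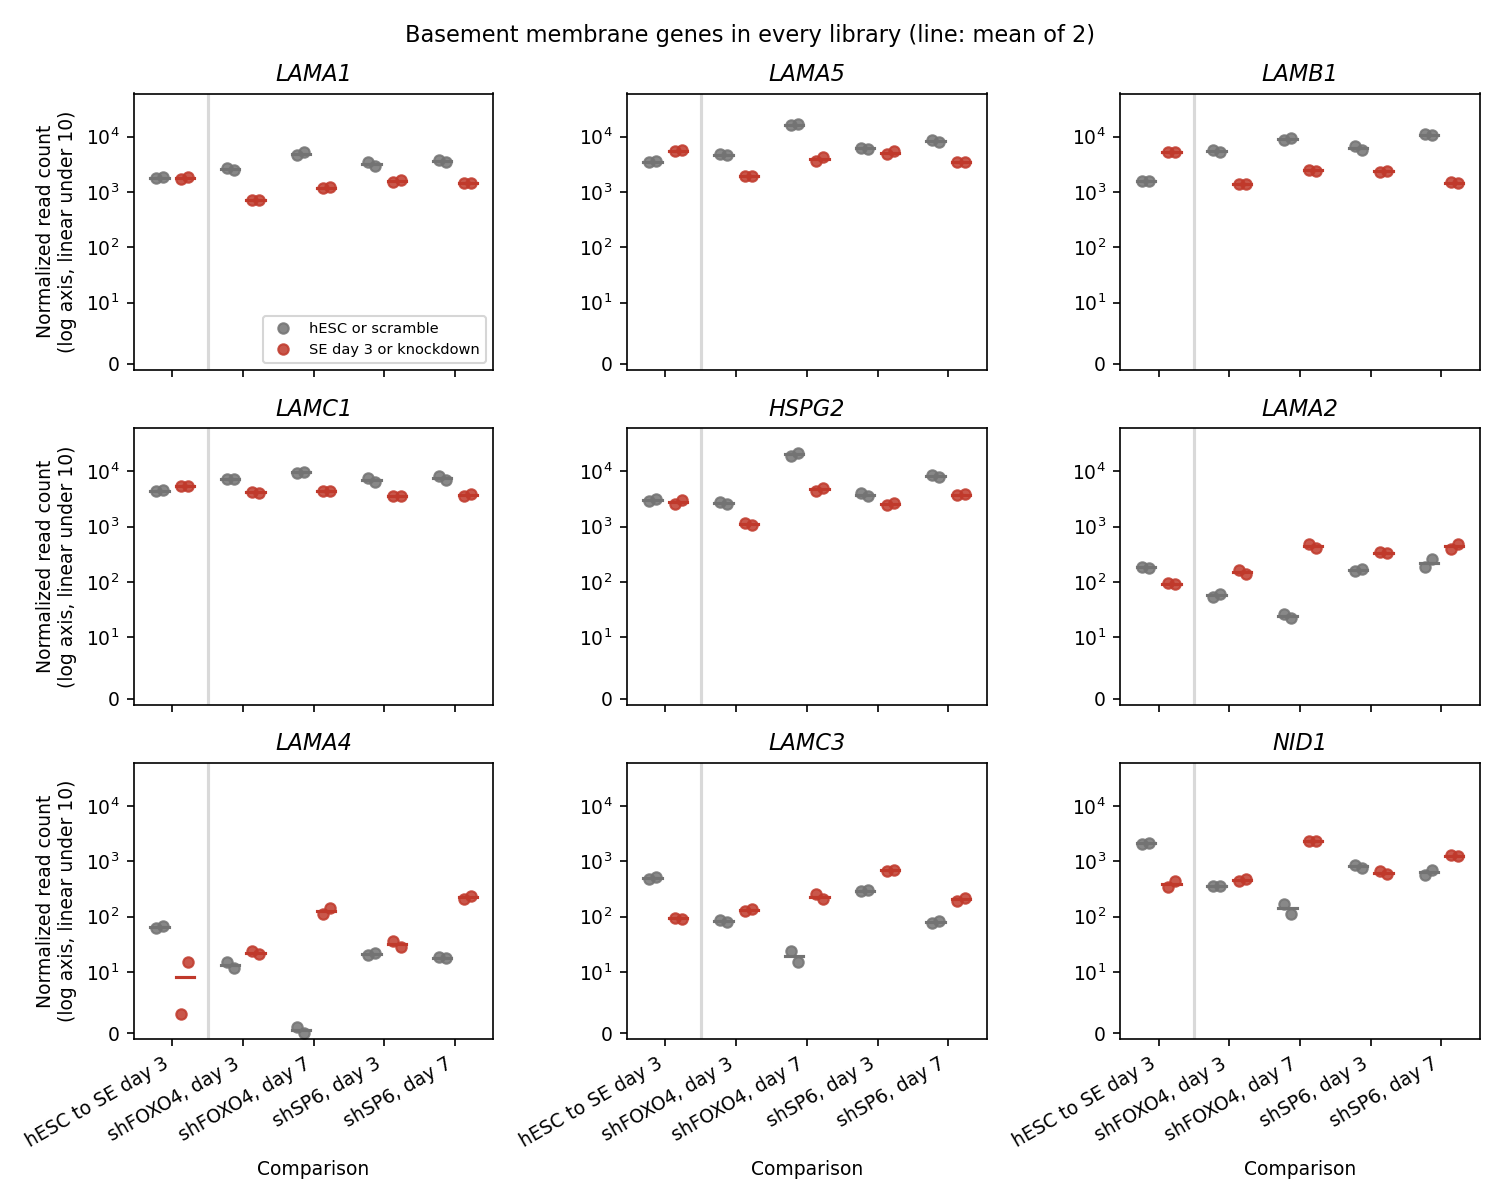
Normalized read counts of 9 basement membrane genes in every library, on an axis that is logarithmic above 10 and linear below, with hESC or scramble libraries in grey, SE day 3 or knockdown libraries in red and a line at the mean of 2. In LAMA1, LAMA5, LAMB1, LAMC1 and HSPG2 the red points of all 4 knockdown comparisons lie under the grey ones, and in LAMA2 and LAMC3 they lie above.

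A second set of chains was higher in the knockdowns, with the highest log2 changes in shFOXO4 cells at day 7. LAMA2 (ENSG00000196569) is the alpha chain of the laminin of muscle and peripheral nerve. In the shFOXO4 comparison it measured 54.2 and 60.8 in scramble and 164 and 136 in shFOXO4 cells at day 3 (change 1.36 ± 0.16, adjusted p = 7.60e-10). By day 7 the counts were 25.8 and 22 in scramble and 474 and 404 in shFOXO4 cells (change 4.14 ± 0.20, adjusted p = 1.46e-07), a 17.7-fold difference. For SP6 they were 159 and 172 in scramble and 351 and 327 in shSP6 cells at day 3 (change 1.03 ± 0.11, adjusted p = 2.29e-05), and at day 7 the change was 0.99 ± 0.17. Knockdown libraries were high in each case. The rise in shFOXO4 cells was larger at day 7 than at day 3 by 2.78 ± 0.25, adjusted p = 3.47e-07, and at day 7 the SP6 effect was smaller than the FOXO4 effect (difference -3.16 ± 0.26, adjusted p = 2.52e-06). The scramble groups of these 2 day 7 comparisons differed as well. Per kb, LAMA2 took on average 0.126% of laminin alpha RNA in scramble and 8.5% in shFOXO4 cells. For SP6 the averages were 2.01% in scramble and 8.3% in shSP6 cells.

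LAMC3 (ENSG00000050555) was also higher in all 4 knockdown comparisons. At day 3 its change in shFOXO4 cells was 0.66 ± 0.15. LAMC3 measured 23.9 and 15 in scramble and 251 and 204 in shFOXO4 cells at day 7 (change 3.51 ± 0.28, adjusted p = 3.65e-06). For SP6 the values were 287 and 300.3 in scramble and 667 and 694 in shSP6 cells at day 3 (change 1.21 ± 0.088, adjusted p = 1.10e-06) and 76.3 and 84.1 in scramble and 192 and 219 in shSP6 cells at day 7 (change 1.34 ± 0.17, adjusted p = 1.12e-04). Every knockdown library lay above its scramble libraries. The FOXO4 effect was larger at day 7 than at day 3 (difference 2.85 ± 0.31, adjusted p = 1.94e-06), and at day 7 the SP6 effect was the smaller one (difference -2.16 ± 0.33, adjusted p = 1.91e-04). The 2 scramble pairs of day 7 also stood apart (23.9 and 15 against 76.3 and 84.1), in tables that were scaled separately. At day 3 the SP6 effect was the larger one (difference 0.55 ± 0.15, adjusted p = 0.00906), a call lost without shSP6 replicate 2 (adjusted p = 0.0538).

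LAMA4 (ENSG00000112769), the alpha chain of laminin-411 in vessel walls, had few reads in scramble cells and was called higher at day 7, not at day 3. For SP6 it measured 18.2 and 17.7 in scramble and 211 and 233 in shSP6 cells at day 7 (change 3.55 ± 0.22, adjusted p = 8.29e-07), and both shSP6 libraries were far above. In the shFOXO4 comparison at day 7 the scramble libraries held 1 read in all and the shFOXO4 libraries 221, a ratio of 263 with a 95% exact interval from 46.8 to 10448 that covers counting error only. The fit, which here depends on the pseudocount, gave 6.50 ± 0.47, adjusted p = 2.29e-06. At day 3 LAMA4 was not called with either hairpin (0.68 ± 0.35, adjusted p = 0.0843 and 0.57 ± 0.28, adjusted p = 0.108), and the day 7 effect was larger than the day 3 effect for both (5.81 ± 0.60, adjusted p = 1.24e-06 for FOXO4, 2.99 ± 0.33, adjusted p = 4.20e-05 for SP6). LAMA3, the alpha chain of laminin-332, was higher in shFOXO4 cells at day 7 (1.48 ± 0.28, adjusted p = 0.00104) and by 0.51 ± 0.22 at day 3. The day 3 call was lost without scramble replicate 1 (change 0.42) or shFOXO4 replicate 1 (change 0.41). It was also lost in limma without the filter (adjusted p = 0.0613) and with DESeq2 (adjusted p = 0.253). For SP6 it measured 122 and 119 in scramble and 307 and 290.5 in shSP6 cells at day 3 (change 1.3 ± 0.12, adjusted p = 6.14e-06), with the shSP6 libraries high, and was not called at day 7 (0.13 ± 0.21, adjusted p = 0.619).

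Of 11 mesenchymal markers, 1 was higher and 8 lower of 9 tested in shFOXO4 cells at day 3, 4 and 5 of 10 at day 7, 1 and 7 of 10 in shSP6 cells at day 3 and 5 and 4 of 10 at day 7. Toward SE day 3, 6 were higher and 2 lower of 8, with a sum of 15229 and 15566.5 in hESC and 19137 and 19174 in SE day 3 cells. Their sum was 46090.2 and 49234 in scramble and 58300.2 and 58662 in shFOXO4 cells in the shFOXO4 comparison at day 7, where LUM and DCN were at 0 in both shFOXO4 libraries. In the shSP6 comparison at day 7 it was 34734 and 39660.2 in scramble and 69775 and 64905 in shSP6 cells, with LUM and PRRX1 at 0 in both shSP6 libraries. Of 5 endothelial markers, PECAM1 was not listed in any table, and 1 was higher and 3 lower of 4 tested in shFOXO4 cells at day 7, with a sum of 737 and 852 in scramble and 3512 and 3781 in shFOXO4 cells. In shSP6 cells at day 7, 1 was higher and 2 lower, with a sum of 1202 and 1556 in scramble and 7199.5 and 7804 in shSP6 cells. The same sum was 5858 and 6019 in hESC and 1922 and 2110 in SE day 3 cells, with 2 markers higher and 1 lower of 4 tested. This endothelial sum was thus also high in undifferentiated cells, but it did not follow the set. In shFOXO4 cells at day 7 it rose with 1 marker higher and 3 lower. Toward SE day 3 it fell with 2 markers higher and 1 lower. It is therefore carried by few genes and does not measure endothelial markers as a set. Of 4 keratinocyte markers, KRT5 and KRT14 were at 0 in hESC and SE day 3 cells and were not listed in the shFOXO4 day 3 table or in either shSP6 table. From hESC to SE day 3, both markers tested were higher, with a sum of 2.89 and 0 in hESC and 105 and 112 in SE day 3 cells. In shFOXO4 cells 1 of 1 tested was lower at day 3 and 1 of 4 at day 7, where the sum was 546 and 469.8 in scramble and 76.2 and 73.2 in shFOXO4 cells. In shSP6 cells 2 of 2 were lower at day 3, with a sum of 255 and 180.0 in scramble and 25.1 and 39 in shSP6 cells. At day 7 there, 1 was higher and 1 lower of 2, with a sum of 512 and 457 in scramble and 32.8 and 35.5 in shSP6 cells. Neural markers had 0 to 2 and trophoblast markers 0 to 1 genes higher in any comparison, and their sums stayed under 350 and under 200 normalized counts. The part of these cell types in the rise of LAMA2, LAMA4, LAMC3 and NID1 was not tested.

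The beta chains LAMB2 and LAMB3 were lower or not called. LAMB2, which replaces LAMB1 in laminin-521, measured 2783 and 2860.3 in scramble and 1072 and 1181 in shFOXO4 cells at day 3 (change -1.33 ± 0.052, adjusted p = 3.76e-25), with the shFOXO4 libraries low. It changed by -0.51 ± 0.057 at day 7 and was not called in shSP6 cells (-0.15 ± 0.062, adjusted p = 0.0583 and -0.17 ± 0.073, adjusted p = 0.0629), though at day 3 it was called lower without scramble replicate 2 (adjusted p = 0.000434). LAMB3, the beta chain of laminin-332, measured 170.0 and 151 in scramble and 53.9 and 33.4 in shFOXO4 cells at day 7 (change -1.89 ± 0.26, adjusted p = 1.40e-04), and again the shFOXO4 libraries were low. LAMB3 changed by -1.70 ± 0.45 in shFOXO4 cells and by -1.25 ± 0.24 in shSP6 cells at day 3, at means under 50 normalized counts, and it was not called in shSP6 cells at day 7 (0.18 ± 0.25, adjusted p = 0.563).

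NID1 and NID2 separated from each other. NID1 (ENSG00000116962) measured 170.0 and 112 in scramble and 2282 and 2287 in shFOXO4 cells at day 7 (change 4.04 ± 0.17, adjusted p = 6.07e-08), a 16.4-fold difference with both shFOXO4 libraries high. Its other changes were 0.39 ± 0.083 in shFOXO4 cells at day 3, -0.37 ± 0.093 in shSP6 cells at day 3 and 0.99 ± 0.11 in shSP6 cells at day 7. The fall at day 3 with the SP6 hairpin was not called without shSP6 replicate 2 (adjusted p = 0.0589). NID2 measured 875 and 791 in scramble and 243 and 247 in shSP6 cells at day 7 (change -1.76 ± 0.11, adjusted p = 8.92e-07), with the shSP6 libraries low. Its other changes were -0.69 ± 0.13 and -0.32 ± 0.11 in shFOXO4 cells and -0.79 ± 0.16 in shSP6 cells at day 3. At day 7 the SP6 effect lay under the FOXO4 effect in both nidogens (difference -3.05 ± 0.22, adjusted p = 9.89e-07 for NID1 and -1.44 ± 0.16, adjusted p = 1.60e-05 for NID2).

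Counts per kb of transcript put the chains on 1 scale within a library. LAMA5 had the most RNA of the 5 alpha chains in all 20 libraries, with LAMA1 next. LAMA5 took 58.1% and 58.4% of laminin alpha RNA in hESC and 71% and 71% in SE day 3 cells. At day 3 its share was higher with both hairpins. In the shFOXO4 comparison it was 59.55% and 59.71% in scramble and 62.7% and 63.7% in shFOXO4 cells. In the shSP6 comparison it was 58.6% and 61.1% in scramble and 65.5% and 66.8% in shSP6 cells. At day 7 the share was lower in the knockdowns, at 74.5% and 72.9% in scramble and 61.4% and 65% in shFOXO4 cells. With the SP6 hairpin at day 7 it was 64.3% and 63.2% in scramble and 55.7% and 55.5% in shSP6 cells. LAMA5 thus remained the leading alpha chain where its counts fell. In the shFOXO4 comparison at day 7, LAMA2 took 0.14% and 0.113% of laminin alpha RNA in scramble and 9.6% and 7.31% in shFOXO4 cells. In the shSP6 comparison at day 7 it took 1.62% and 2.4% in scramble and 7.52% and 9.03% in shSP6 cells. LAMA4 took 0.235% and 0.244% in scramble and 5.98% and 6.44% in shSP6 cells at day 7. Among beta chains, LAMB1 held 45.8% and 45.4% in hESC and 69.5% and 69.2% in SE day 3 cells. In the shSP6 comparison at day 7 its share was 76.5% and 75.3% in scramble and 31.9% and 32.5% in shSP6 cells, where LAMB2 held 65.8% and 65.2%. Shares are given without a test, since an exact permutation of 2 against 2 libraries cannot go below p = 0.33.

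**Figure D3:**
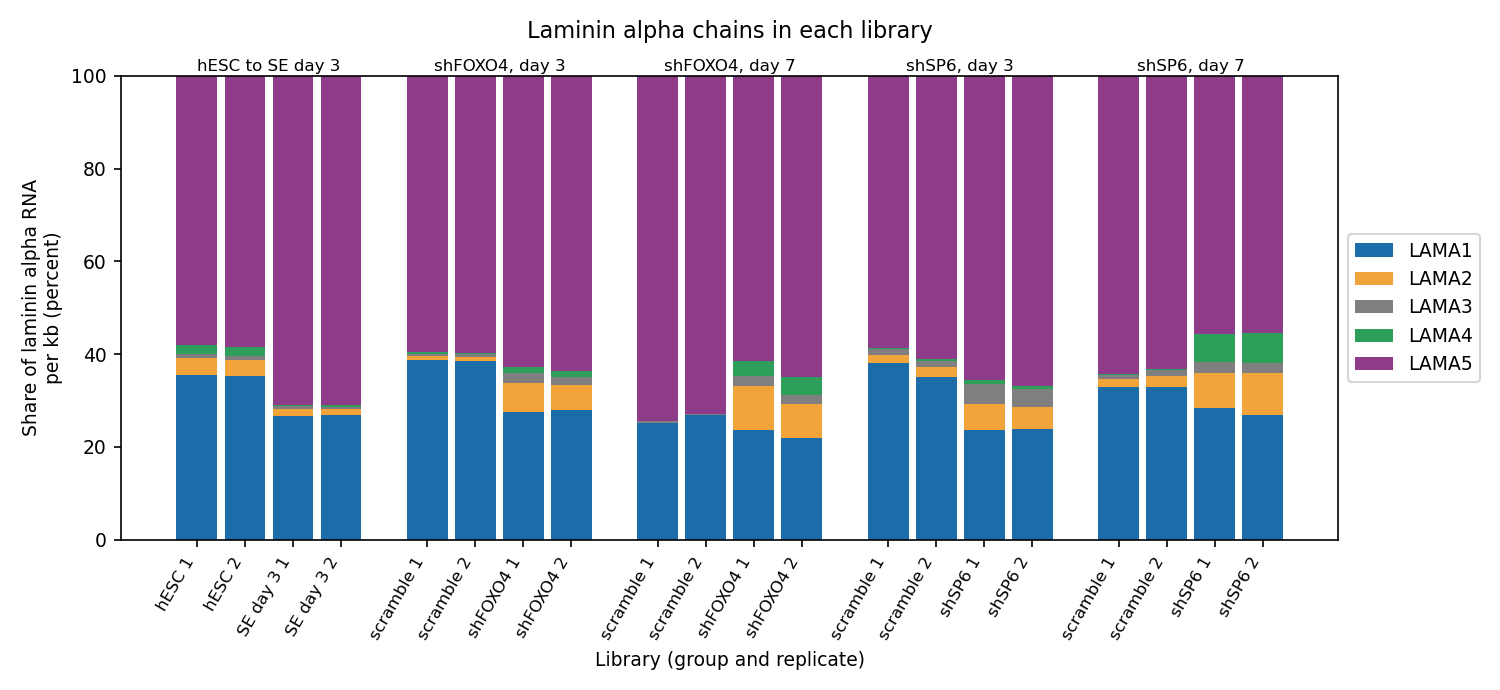
Share of each laminin alpha chain in the summed laminin alpha RNA per kb (percent, stacked to 100), 1 bar per library, grouped by comparison. LAMA5 and LAMA1 make up most of every bar, and LAMA2 and LAMA4 widen in the knockdown bars of day 7.

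Among the alpha subunits of integrins that bind fibronectin and vitronectin, ITGAV fell by at least 2-fold in 3 of the 4 knockdown comparisons. It measured 4365 and 4239 in scramble and 1055 and 1177 in shFOXO4 cells at day 3 (change -1.95 ± 0.051, adjusted p = 7.48e-32). Its day 7 values were 1637 and 1459 in scramble and 623 and 569 in shFOXO4 cells (change -1.38 ± 0.086, adjusted p = 8.55e-07). For SP6 at day 3 ITGAV stood at 6500.0 and 6656 in scramble and 2614 and 2499 in shSP6 cells (change -1.36 ± 0.056, adjusted p = 5.81e-08). All 3 knockdown pairs lay well under scramble. At day 7 the shSP6 libraries overlapped with scramble (1030.2 and 863 in scramble and 1018 and 1243 in shSP6 cells) and ITGAV was not called (0.25 ± 0.12, adjusted p = 0.0964), although it was called higher without scramble replicate 1 (adjusted p = 0.0146) or shSP6 replicate 1 (0.0381) or with quantile normalization (0.0374). The SP6 effect differed between the days by 1.62 ± 0.14, adjusted p = 8.40e-06, and from the FOXO4 effect at day 7 by 1.63 ± 0.16, adjusted p = 8.58e-06. ITGA5, the alpha subunit of the main fibronectin receptor, was lower at day 3 with both hairpins (-0.60 ± 0.064 and -0.95 ± 0.074), higher in shFOXO4 cells at day 7 (0.38 ± 0.087) and lower in shSP6 cells at day 7 (-0.32 ± 0.087).

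ITGB1 (ENSG00000150093), the partner of most alpha subunits on the list, changed direction between the days. It measured 14469 and 14347 in scramble and 5487 and 5777 in shFOXO4 cells at day 3 (change -1.36 ± 0.039, adjusted p = 2.32e-30), with the shFOXO4 libraries low. At day 7 the values were 7997 and 7658 in scramble and 10316 and 10183 in shFOXO4 cells (change 0.39 ± 0.052, adjusted p = 1.20e-04), with the shFOXO4 libraries high. In shSP6 cells ITGB1 changed by -0.55 ± 0.057 at day 3 and by 0.98 ± 0.069 at day 7. The difference between the days was 1.74 ± 0.063, adjusted p = 7.58e-11 for FOXO4 and 1.52 ± 0.087, adjusted p = 3.68e-07 for SP6. ITGB5, a partner of ITGAV and the other beta subunit with much RNA per kb, was lower in shFOXO4 cells on both days (-0.23 ± 0.04 and -0.40 ± 0.058) and in shSP6 cells at day 3 (-0.18 ± 0.054), and higher in shSP6 cells at day 7 (0.45 ± 0.079). The day 3 call in shSP6 cells was lost without either shSP6 library (adjusted p = 0.200 and 0.0911).

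The laminin receptor subunits did not move as a group. ITGA3, which pairs with ITGB1 and binds laminin-332 and laminin-511, measured 584 and 559 in scramble and 225 and 223 in shFOXO4 cells at day 3 (change -1.35 ± 0.086, adjusted p = 8.01e-18), with the shFOXO4 libraries low. It changed by -0.48 ± 0.07 in shFOXO4 cells at day 7, by -0.32 ± 0.093 in shSP6 cells at day 3 and by 0.88 ± 0.074 in shSP6 cells at day 7. Its fall at day 3 with the SP6 hairpin was not called without shSP6 replicate 1 (adjusted p = 0.0735). ITGA6 was higher in shFOXO4 cells on both days (0.88 ± 0.046 and 0.76 ± 0.064) and not called in shSP6 cells (-0.15 ± 0.067, adjusted p = 0.0812 and -0.064 ± 0.092, adjusted p = 0.573), though at day 3 it was called lower without scramble replicate 1 (adjusted p = 0.00394). The hairpins' effects on ITGA6 differed at both days (-1.03 ± 0.08, adjusted p = 1.10e-07 at day 3 and -0.82 ± 0.11, adjusted p = 8.18e-05 at day 7). ITGA7, best known from muscle, measured 644 and 568 in scramble and 1131 and 1326 in shFOXO4 cells at day 7 (change 1.02 ± 0.10, adjusted p = 1.67e-05), with the shFOXO4 libraries high, and its change in shFOXO4 cells at day 3 was -0.25 ± 0.064. In shSP6 cells it was 0.20 ± 0.073 at day 3 and 0.55 ± 0.093 at day 7, and the former was not called without scramble replicate 1 (adjusted p = 0.0541), shSP6 replicate 1 (0.304) or shSP6 replicate 2 (0.105), without the filter (0.0536) or with DESeq2 (0.138). ITGB4, the hemidesmosome partner of ITGA6, was called lower in shFOXO4 cells at day 3 (-0.53 ± 0.17) and day 7 (-0.37 ± 0.12) and in shSP6 cells at day 7 (-0.39 ± 0.14), and was not called in shSP6 cells at day 3 (-0.28 ± 0.19). Its calls were lost without scramble replicate 2 at day 3 (adjusted p = 0.0508), without scramble replicate 1 or shFOXO4 replicate 1 at day 7 (0.0787 and 0.127), and in shSP6 cells without scramble replicate 2 or shSP6 replicate 2 (0.103 and 0.282). DESeq2 did not call it in shFOXO4 cells at day 3 (0.109), nor did quantile normalization at day 7 (0.0556). In shSP6 cells at day 7 it was not called without the filter (0.0832), with quantile normalization (0.105), by edgeR (0.0502) or by DESeq2 (0.118). It was called lower in shSP6 cells at day 3 without scramble replicate 2 (0.00813).

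Among collagen receptor subunits, ITGA1, which pairs with ITGB1, was lower in all 4 knockdown comparisons. It measured 368 and 389 in scramble and 116 and 118 in shFOXO4 cells at day 3 (change -1.69 ± 0.11, adjusted p = 1.06e-17). By day 7 the values were 188 and 184 in scramble and 73.6 and 70.0 in shFOXO4 cells (change -1.36 ± 0.17, adjusted p = 8.66e-05). For SP6 at day 7 they were 190.1 and 179 in scramble and 71.2 and 73.5 in shSP6 cells (change -1.34 ± 0.17, adjusted p = 1.13e-04), so that knockdown libraries were low in all 3 comparisons. At day 3 the SP6 effect (-0.32 ± 0.094) was smaller than the FOXO4 effect (difference 1.37 ± 0.13, adjusted p = 1.17e-06). ITGA2 was lower at day 3 with both hairpins (-0.72 ± 0.096 and -0.54 ± 0.10) and not called at day 7 (-0.039 ± 0.18, adjusted p = 0.852 and -0.28 ± 0.14, adjusted p = 0.104), though in shSP6 cells it was called lower without scramble replicate 1 (adjusted p = 0.0187). ITGA10 was under the filter in all 5 comparisons, and ITGA11 in all but the shSP6 day 7 comparison, where it was not called (-0.65 ± 0.32, adjusted p = 0.105).

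ITGA9, which binds tenascin-C and osteopontin with ITGB1, moved differently with the 2 hairpins. At day 7 it measured 386 and 347 in scramble and 118 and 111 in shFOXO4 cells (change -1.67 ± 0.14, adjusted p = 5.33e-06), with the shFOXO4 libraries low. At day 3 it was 236 and 284 in scramble and 576 and 561 in shSP6 cells (change 1.13 ± 0.11, adjusted p = 7.75e-06), with the shSP6 libraries high. It was not called in shFOXO4 cells at day 3 (0.13 ± 0.11, adjusted p = 0.341) or in shSP6 cells at day 7 (-0.21 ± 0.18, adjusted p = 0.338), where it was called lower without scramble replicate 2 (adjusted p = 0.0194). All 4 differences between effects were called. They were -1.79 ± 0.17 between the days for FOXO4, -1.34 ± 0.23 between the days for SP6, 1.0 ± 0.15 between the hairpins at day 3 and 1.46 ± 0.24 at day 7.

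Several integrin genes with few reads also changed and were picked for mention after their values were seen. ITGA4, a receptor subunit for fibronectin and VCAM1, was higher at day 7 with both hairpins. It measured 25.8 and 14 in scramble and 109 and 97.2 in shFOXO4 cells with the FOXO4 hairpin (change 2.37 ± 0.33, adjusted p = 1.46e-04) and 37.6 and 24.3 in scramble and 119.8 and 131 in shSP6 cells with the SP6 hairpin (change 2.01 ± 0.26, adjusted p = 1.08e-04). Both pairs of knockdown libraries were high. ITGB6, an epithelial partner of ITGAV that activates TGF-beta, measured 40.1 and 50 in scramble and 2.63 and 5.23 in shFOXO4 cells at day 7 (change -3.27 ± 0.44, adjusted p = 1.23e-04). In the shSP6 comparison at day 7 it had 44 reads in scramble and 1 read in shSP6 libraries, a ratio of 59.3 with a 95% exact interval from 10.1 to 2396. At day 3 it had 26 and 3 reads there, a ratio of 9.90 with an interval from 3.03 to 51.1, and was under the filter. ITGA8 had 47 reads in scramble and 1 in shSP6 libraries at day 7, a ratio of 63.4 with an interval from 10.8 to 2556. These intervals cover counting error only. ITGB8, another activator of TGF-beta with ITGAV, was higher in shFOXO4 cells at day 7 (1.13 ± 0.37, adjusted p = 0.0207) and in shSP6 cells at day 3 (0.71 ± 0.20, adjusted p = 0.0127). The day 7 call was lost without shFOXO4 replicate 2 (adjusted p = 0.0960) and, by a narrow margin, without scramble replicate 2, and the day 3 call without shSP6 replicate 1 (0.0736). Quantile normalization lowered the day 7 change to 0.52 and ended its call (0.215), and DESeq2 called neither change (0.135 at day 7 and 0.0749 at day 3). In shSP6 cells at day 7 it was not called (0.73 ± 0.33), except without scramble replicate 2 (0.0438).

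The balance of ITGAV to ITGA6 per kb set most groups apart. Of the 12 integrin alpha subunits, only this pair was put in a ratio. It restates changes given above, since ITGAV and ITGA6 moved in opposite directions toward SE day 3 and in shFOXO4 cells. The log2 ratio was -1.92 and -1.94 in the hESC libraries and 0.68 and 0.39 in SE day 3 cells. With the FOXO4 hairpin at day 3 it was 0.77 and 0.72 in scramble and -2.13 and -2.04 in shFOXO4 cells, and at day 7 it was 0.23 and 0.036 in scramble and -1.96 and -2.05 in shFOXO4 cells. The shFOXO4 libraries lay near the hESC value on both days. For SP6 the ratio was 1.28 and 1.23 in scramble and 0.0071 and 0.075 in shSP6 cells at day 3. At day 7 it was -0.66 and -1.12 in scramble and -0.70 and -0.45 in shSP6 cells, and there the groups overlapped. Since it is a ratio within a library, the scaling of the tables does not enter it.

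**Figure D4:**
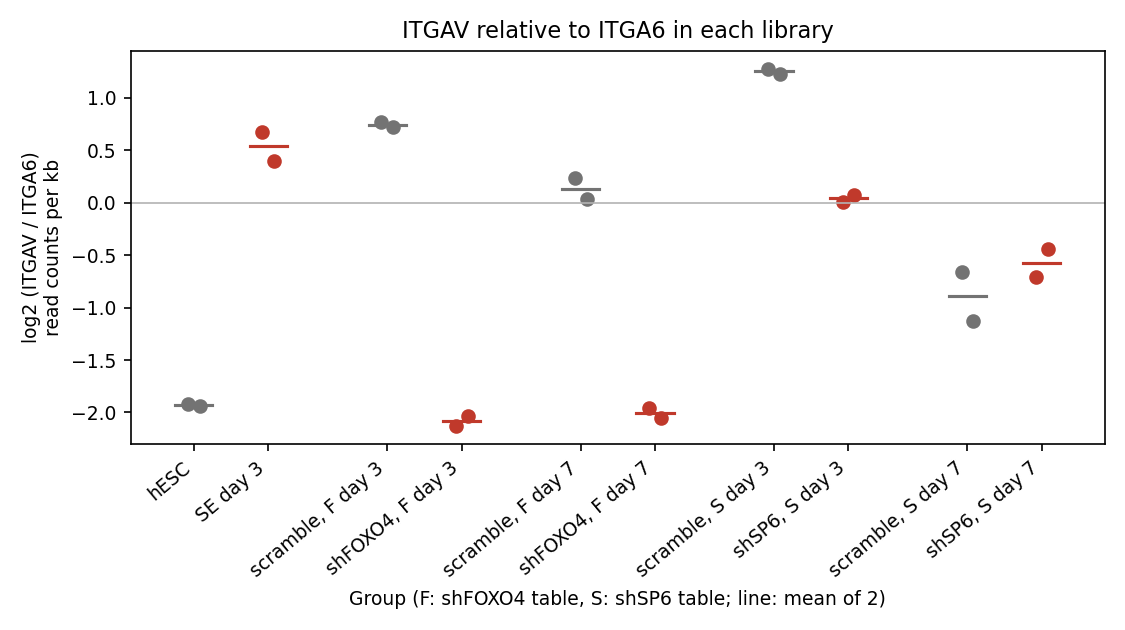
Log2 ratio of ITGAV to ITGA6 read counts per kb in each library (points) with the mean of 2 (line), control groups in grey and SE day 3 or knockdown groups in red. The shFOXO4 libraries of both days lie between -2.13 and -1.96, beside hESC at -1.93 and away from their scramble libraries, which are all above 0.

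Of the 23 known integrin dimers and laminin trimers that were looked at, 10 had all subunits lower in shFOXO4 cells at day 3 and 0 had all higher. At day 7 these counts were 5 and 4. In shSP6 cells they were 8 and 0 at day 3 and 2 and 3 at day 7. On the way from hESC to SE day 3, 1 dimer had both subunits lower (ITGA6 with ITGB4) and 4 heteromers had all subunits higher (laminin-511, laminin-521, and ITGB1 with ITGAV or ITGA1). The latter 2 were lost without hESC replicate 2 or either SE day 3 library, which left 2. Without shSP6 replicate 1 the count of 8 in shSP6 cells at day 3 fell to 4, losing laminin-511, ITGB1 with ITGA1 or ITGA3, and ITGAV with ITGB5. In shSP6 cells at day 7 the 2 with all chains lower were laminin-111 and laminin-511, and the 3 with both subunits higher were ITGB1 with ITGA3, ITGA4 or ITGA7. This count of 3 became 5 without scramble replicate 1 or shSP6 replicate 1 or with quantile normalization, adding ITGAV with ITGB1 or ITGB5. Heteromers share subunits, above all ITGB1, so these counts are not independent of each other. No share over all genes was worked out for them.

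Counted over the list, 23 of 27 tested members were called in shFOXO4 cells at day 3 (85.2%), 5 higher and 18 lower. In that comparison 62.7% of all genes were called, 31.8% higher and 30.8% lower. At day 7, 27 of 28 were called, 11 higher and 16 lower, against 72.6% of all genes (37.1% higher, 35.4% lower). In shSP6 cells at day 3, 22 of 27 were called, 7 higher and 15 lower, against 55.8% of all genes (28.3% higher, 27.5% lower). At day 7, 20 of 30 were called, 9 higher and 11 lower, against 58.6% (29% higher, 29.6% lower). The median change of tested members was -0.60, -0.39, -0.32 and -0.13 in these 4 comparisons, with medians of all genes of 0.0071, 0.022, 0.0012 and -0.015. By at least 2-fold, 10 fell and 1 rose in shFOXO4 cells at day 3 (8.61% and 6.17% of all genes), 10 fell and 8 rose at day 7 (15.6% and 21.5%), 4 fell and 4 rose in shSP6 cells at day 3 (7.74% and 8.43%), and 9 fell and 3 rose at day 7 (11% and 13.4%). Among the 10 laminin chains, 5 fell and 1 rose by at least 2-fold in shFOXO4 cells at day 3, 5 fell and 4 rose at day 7, and in shSP6 cells 3 fell and 3 rose at day 3 and 4 fell and 2 rose at day 7.

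Effects on the same genes were compared between days and between hairpins by test. For FOXO4, 14 of 27 members had a higher and 5 a lower effect at day 7 than at day 3, against 32.1% and 30.7% of all genes (62.7% in either direction). By at least 2-fold, 8 were higher and 1 lower, against 16.7% and 9.51%. For SP6, 10 were higher and 8 lower at day 7 than at day 3, against 14.8% and 20.3% of all genes (35.1% in either direction), and by at least 2-fold 7 and 5, against 5.42% and 5.95%. ITGB1, ITGA3 and NID1 were called lower at day 3 and higher at day 7 with the SP6 hairpin, as ITGB1 and ITGA7 were with the FOXO4 hairpin. At day 3 the SP6 effect was above the FOXO4 effect in 14 of 27 members and under it in 3, against 18.7% and 18.1% of all genes (36.8% in either direction), and by at least 2-fold in 5 and 1, against 4.85% and 2.20%. ITGA1, LAMB2, LAMA5 and ITGA3, lower in shFOXO4 cells, were among those above. At day 7 the SP6 effect was above in 11 of 28 members and under in 10, against 19.9% and 29.1% of all genes (49.0% in either direction), and by at least 2-fold in 4 and 7, against 6.18% and 15.4%.

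**Figure D5:**
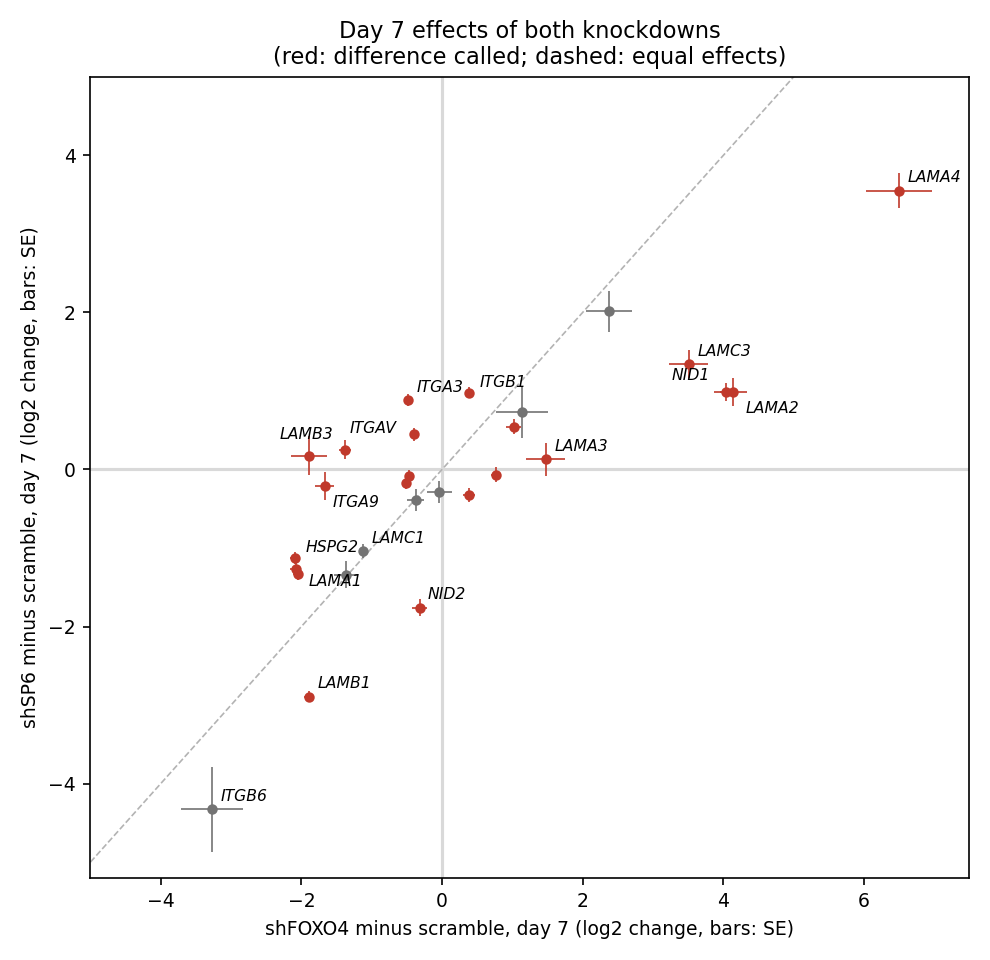
Log2 change at day 7 with the SP6 hairpin against that with the FOXO4 hairpin for the members tested in both, with bars for the standard error, red where the difference between the effects was called and a dashed line where they would be equal. LAMA2, LAMC3, NID1 and LAMA4 lie to the right of the line, LAMB1 and NID2 under it, and LAMC1 close to it.

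Genes around the members were counted from 3 further lists. Among 25 other basement membrane and hemidesmosome genes, 2 were higher and 15 lower of 21 tested in shFOXO4 cells at day 3, 6 and 12 of 22 at day 7, 9 and 9 of 23 in shSP6 cells at day 3 and 8 and 11 of 22 at day 7. From hESC to SE day 3 they were 7 higher and 8 lower of 22. Of all genes tested, 35.2% were called higher and 37.0% lower from hESC to SE day 3. In shFOXO4 cells these shares were 31.8% and 30.8% at day 3 and 37.1% and 35.4% at day 7. In shSP6 cells they were 28.3% and 27.5% at day 3 and 29% and 29.6% at day 7. The collagen IV chain COL4A6 rose toward SE day 3 (1.69 ± 0.071, adjusted p = 2.48e-10) and measured 2318 and 2444 in scramble and 263 and 246 in shFOXO4 cells at day 7 (change -3.22 ± 0.081, adjusted p = 4.00e-09), while COL4A2 moved the other way in shFOXO4 cells (0.65 ± 0.049, adjusted p = 1.64e-15 at day 3 and 0.53 ± 0.057, adjusted p = 2.95e-05 at day 7). FREM2, which with FREM1 anchors epidermis to dermis, measured 8497 and 7027 in scramble and 427 and 557 in shSP6 cells at day 7 (change -3.98 ± 0.13, adjusted p = 1.45e-08). COL7A1, the collagen of anchoring fibrils, was higher there (1.84 ± 0.12, adjusted p = 1.48e-06), and so was the netrin NTN4 (3.01 ± 0.22, adjusted p = 2.15e-06). The nephronectin gene NPNT, a ligand of ITGA8 that stands on 2 of the lists, was lower at day 3 with both hairpins (-3.13 ± 0.16, adjusted p = 7.19e-21 and -2.38 ± 0.14, adjusted p = 2.92e-07). SMOC1, a basement membrane glycoprotein, had the lowest change of this list in shFOXO4 cells at day 7 (-4.76 ± 0.17, adjusted p = 2.94e-08).

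Of 19 integrin adaptors, 18 were tested in each comparison. The shares of all genes in the paragraph above belong beside the counts of this list and of the ligands. From hESC to SE day 3, 8 rose and 3 fell. In shFOXO4 cells 2 were higher and 11 lower at day 3, and 5 and 9 at day 7. In shSP6 cells the counts were 4 and 9 at day 3, and 8 and 3 at day 7. TNS3, a tensin, rose toward SE day 3 (2.78 ± 0.06, adjusted p = 4.31e-13) and was lower at day 7 with both hairpins (-2.12 ± 0.088, adjusted p = 6.61e-08 and -1.93 ± 0.10, adjusted p = 3.26e-07). Its counterpart in direction was the parvin PARVB, which fell toward SE day 3 (-1.61 ± 0.12, adjusted p = 4.48e-08) and was higher in all 4 knockdown comparisons, by 0.91 to 1.68. Of 16 integrin ligands, 14 were tested. They counted 7 higher and 6 lower at SE day 3, 1 and 12 in shFOXO4 cells at day 3, 7 and 5 at day 7, 3 and 7 in shSP6 cells at day 3 and 8 and 3 at day 7. Fibronectin, FN1, the main ligand of ITGA5 with ITGB1, measured 23173 and 21338 in scramble and 2312 and 2286 in shFOXO4 cells at day 3 (change -3.27 ± 0.041, adjusted p = 1.87e-43). Osteopontin, SPP1, a ligand of ITGAV and ITGA9, was higher at day 7 with both hairpins (3.18 ± 0.15, adjusted p = 1.64e-07 and 3.69 ± 0.084, adjusted p = 1.84e-09), and so was CCN2 (3.71 ± 0.13, adjusted p = 2.76e-08 and 3.07 ± 0.30, adjusted p = 1.46e-05). Tenascin-C, TNC, was lower in shFOXO4 cells at day 7 (-2.95 ± 0.11, adjusted p = 4.40e-08).

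Exons of 20 members overlap those of another annotated gene, in 16 of them a gene on the opposite strand. Among the genes above, LAMB1 overlaps DLD, LAMA5 overlaps ADRM1, NID2 overlaps RTRAF, HSPG2 overlaps LDLRAD2 and ITGA7 overlaps BLOC1S1 on the opposite strand, and ITGA1 overlaps PELO on its own strand. The library kit keeps strand, and whether the counting used it is not given in the sources used here, so reads of overlapping genes cannot be told apart here. ITGA1, ITGA5, ITGA6, ITGA9, ITGA10, ITGAV, ITGB1, ITGB8, LAMA1, LAMA2 and LAMA4 also overlap an opposite-strand gene. The ratio of ITGAV to ITGA6 thus has this limit on both sides.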

How the data were processed

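Per the labels' protocols, total RNA was made into stranded mRNA libraries. Listed in the submitters' processing notes are the tools DESeq2 1.20.0, RSEM 1.3.0, STAR 2.6.1 and Trimmomatic 0.39 and the build hg19. The deposited signal values are read counts per gene that the authors divided by size factors, separately in each of 5 tables of 4 libraries. Every value came out as a whole number of reads (within 0.001 read) after division by 1 step per library. In 2 scramble libraries, replicate 2 of shFOXO4 day 7 and of shSP6 day 3, the step lay close to 1, and their recovered reads were used like the others. Knockdown columns name only the arm and replicate, and the day was taken from the table.

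Genes whose table mean was at least 10 were tested with limma 3.58.1 (R 4.3.3, empirical Bayes with a trend) on log2(value + 1), with Benjamini-Hochberg adjustment over all genes tested and a threshold of 0.05. Differences between effects were contrasts over 8 libraries. The method was tested on simulated data. Fold changes on this scale understate those of low genes. Recovered reads were fitted with edgeR 4.0.16 and DESeq2 1.42.0 as alternatives, beside other pseudocounts, filters, scalings, a replicate block and each library left out. Levels per kb used the longest protein-coding transcript. Library-by-library values are given for members called with a log2 change of at least 1 and a mean of at least 100. From the other lists, the called genes with the 2 highest and 2 lowest changes were candidates for naming. ITGA4, ITGA8, ITGB6, ITGB8 and other members outside this rule were singled out after their values were seen. The members and lists were chosen with earlier results of these data known.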

Additional observations from a re-analysis of the deposited data

Results flagged for a closer look

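Differences between effects, each tested with limma over all genes, are given here for members that passed the test by at least 1 on the log2 scale with a mean of at least 100 normalized counts, 29 in all.

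Between day 7 and day 3 of the FOXO4 knockdown, the effect differed in ITGA7 (1.27), ITGA9 (-1.79), ITGB1 (1.74), LAMA2 (2.78), LAMC3 (2.85) and NID1 (3.65). ITGA7 and ITGB1 were called lower at day 3 and higher at day 7. Between the same days of the SP6 knockdown it differed in ITGA1 (-1.02), ITGA3 (1.2), ITGA9 (-1.34), ITGAV (1.62), ITGB1 (1.52), LAMA3 (-1.17), LAMA5 (-1.01), LAMB1 (-1.50) and NID1 (1.35). There ITGA3, ITGB1 and NID1 were called lower at day 3 and higher at day 7.

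At day 3 the SP6 effect differed from the FOXO4 effect in ITGA1 (1.37), ITGA3 (1.03), ITGA6 (-1.03), ITGA9 (1.0), LAMA5 (1.03) and LAMB2 (1.17). At day 7 it differed in ITGA3 (1.36), ITGA9 (1.46), ITGAV (1.63), LAMA2 (-3.16), LAMB1 (-1.0), LAMC3 (-2.16), NID1 (-3.05) and NID2 (-1.44), and ITGA3 was called lower with the FOXO4 hairpin and higher with the SP6 hairpin. The 2 sides of each difference come from tables that the authors scaled separately, and the libraries of the shFOXO4 day 7 table had the highest mitochondrial share, whose part in these differences was not tested. Each side also has its own scramble libraries, so a difference can lie in the scramble groups as well as in the knockdown groups.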

How the results depend on the processing

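There were 73 within-table changes and differences called by at least 1 on the log2 scale with a mean of at least 100. All kept their direction and their call in the 1080 recomputed values. These used another pseudocount, filter, scaling or tool, the replicate block, or left out 1 library. The 1080 also hold, for each of the 73, the main fit at a 2-fold threshold. That setting could not fail, since these members were chosen for passing it. Requiring a change of at least 2-fold lowered the counts of members called. From hESC to SE day 3, 2 were then higher and 6 lower. In shFOXO4 cells they were 1 and 10 at day 3 and 8 and 10 at day 7. In shSP6 cells they were 4 and 4 at day 3 and 3 and 9 at day 7. For differences between effects, they were 8 and 1 for FOXO4 between days and 7 and 5 for SP6 between days. Between hairpins they were 5 and 1 at day 3 and 4 and 7 at day 7. With the union of exons as the length, the LAMA5 share of laminin alpha RNA differed by 12.2 percentage points at SE day 3, by 1.69 in shFOXO4 and 4.43 in shSP6 cells at day 3, and by -9.16 in shSP6 cells at day 7. With the longest transcript and 1 library left out, the shFOXO4 day 3 difference was 3.11 to 4.05 points, more than with the union of exons. Quantile normalization moved the median of all genes from 0.021 to -0.087 for the FOXO4 effect between days.

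Leaving out 1 library at a time gave 5 to 7 members higher and 11 to 13 lower at SE day 3. It gave 4 to 5 and 16 to 18 in shFOXO4 cells at day 3, and 10 to 11 and 14 to 16 at day 7. In shSP6 cells it gave 5 to 7 and 11 to 17 at day 3, and 9 to 10 and 10 to 11 at day 7. An arm left with 1 library was assumed to vary like the other. Replicate numbers were used as a block in a paired fit, which gave 7 members higher and 13 lower at SE day 3 and 6 and 15 in shSP6 cells at day 3, and the same counts as without the block in the other 3 comparisons. It called HSPG2 lower at SE day 3 (adjusted p = 0.00548, paired limma fit) and ended the call of ITGA7 in shSP6 cells at day 3 (0.0559) and between days (0.0654). For the SP6 effect between days it gave 9 higher, 1 fewer than without it. Deviations of same-numbered libraries correlated by -0.050 to 0.059, so no large shared deviation was seen. With 2 libraries per group this cannot show whether same-numbered libraries were made together, and the labels do not say.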
